A study of Mus musculus with 4 samples.

Results

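Genes of cholesterol and fatty acid synthesis were followed by mRNA-seq in mouse embryonic stem cells (mESCs), wild-type or mutant for the clock gene Bmal1. A list of 29 genes was used: 18 enzymes of sterol synthesis, 5 regulators of the SREBP pathway, the sterol carrier gene Stard4 and 5 genes of fatty acid synthesis. Each was looked up by symbol among the 37310 genes of the deposited table, and 28 were found, with Msmo1 listed under its older symbol Sc4mol. Hmgcs1, which encodes the enzyme that makes HMG-CoA, is among the promoters described, but its mRNA level was not analysed here.

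The mESCs belong to the JM8 line of strain C57BL6/N and were kept without feeder cells in a serum-free 2i medium containing LIF. Cells of both genotypes were exposed to 1 µM PD0325901, an inhibitor of Mek, and 3 µM CHIR99021, an inhibitor of Gsk3. The data comprise 2 wild-type and 2 Bmal1-/- libraries, described as biological replicates, with 21504265 to 23329034 reads on genes in each. The Bmal1-/- cells are a single clonal line made with CRISPR/Cas9, so that traits of this clone and the genotype cannot be told apart.

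Cells build cholesterol from acetyl-CoA: the mevalonate arm makes isoprenoid units, these are joined into squalene and closed into lanosterol, and a chain of late enzymes turns lanosterol into cholesterol. Fatty acids start from the same acetyl-CoA, which is carboxylated, assembled into palmitate, and then elongated or desaturated. Genes of both routes are turned on by the SREBP transcription factors, which Insig proteins hold in the endoplasmic reticulum with their escort Scap while sterols are plentiful.

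The targeted gene was examined first. The normalized read count of Bmal1, listed as Arntl, was 678 and 733 in wild-type cells, and the libraries labelled Bmal1-/- gave 556 and 590.3. Both labelled libraries lay below both wild-type libraries, but most of the mRNA remained, at 81.2% of the wild-type mean (log2 fold change -0.30, SE 0.07, limma adjusted p = 0.0011). The difference runs the way the labels say, although a level this close to wild-type checks them only weakly. The mESC identity was checked with 10 marker genes. Of them 4 were called higher and 6 lower, beside 24% and 28.6% of all genes tested. Dppa3 had the lowest fold change, with 1148 and 1157 in wild-type and 601 and 590 in Bmal1-/- libraries. It was at 51.7% of the wild-type mean (log2 fold change -0.95, limma adjusted p = 5.4e-11). Tfcp2l1 (0.40) and Tbx3 (0.36) had the highest fold changes, and these calls and that of Dppa3 held under all 16 alternatives. Not all other calls were stable. The lower call of Dppa5a was lost under 9 of the 16 alternatives, among them without wild-type replicate 2 (-0.04), Bmal1-/- replicate 1 (-0.12) or Bmal1-/- replicate 2 (-0.11), and its sign turned with quantile normalization. That of Zfp42 was lost under 7, among them without wild-type replicate 2 (-0.11) or Bmal1-/- replicate 2 (-0.14). Nanog, a pluripotency factor, had 22379 and 22465 in wild-type and 26312 and 27127 in Bmal1-/- libraries. Both Bmal1-/- values were higher, and the call held under all 16 alternatives (log2 fold change 0.25, limma adjusted p = 8.5e-06). Over the 10 genes the summed normalized read count was 157972 and 160220.0 in the wild-type and 162783 and 164550.0 in the Bmal1-/- libraries, led by Dppa5a, a gene of pluripotent cells. Pou5f1, the pluripotency factor Oct4, stood at 28677 and 29164 in wild-type and 26483 and 26504 in Bmal1-/- libraries, so both groups carried the defining mRNA of mESCs.

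Many cholesterol genes were slightly lower in the Bmal1-/- libraries, and Elovl6, which elongates palmitate, had the highest fold change in the opposite direction, followed by Cyp51 among the genes called. Genes averaging 10 or more normalized reads across the 4 libraries were tested, and all 28 met this. At a limma adjusted p under 0.05, 16 of the 28 were called, against 52.6% of all 14510 genes tested, so that the share called was near the background. They differed in direction: 14 were lower and 2 higher, while over all genes tested 28.6% were called lower and 24% higher. The share called lower depends on level, since among 10486 genes with a mean of at least 100, a filter chosen after seeing the data, 36.8% were called lower, and there 15 of the 28 were. None of the 28 was called by limma with a change past 2-fold, against 7.21% of all genes tested, and the count was also 0 at an unadjusted p under 0.05 and with edgeR and DESeq2.

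The number called lower was sensitive to processing: it was 8 when every gene was tested, 8 with equal library totals, 9 with quantile normalization, 5 with limma without the trend and 7 with DESeq2, and 9 without either Bmal1-/- library. The number called higher became 4 with median-ratio size factors, 7 with equal library totals or quantile normalization, and 5 with edgeR or without wild-type replicate 1. Equal library totals also changed the split over all genes, from 45.7% to 56.8% of calls being higher. Over all genes, 12.4% were called lower when every gene was tested and 22% with equal library totals. The share was 27.7% with quantile normalization, 17.3% with limma without the trend and 17.5% with DESeq2. With quantile normalization and without the trend, the share of the 28 called lower was near that of all genes. Called higher were 25.1% with median-ratio size factors, 29% with equal library totals, 22.3% with quantile normalization and 26.3% with edgeR. Across the 16 alternatives, 7 genes were called every time: Pmvk, Mvd, Acat2, Dhcr7 and Srebf1 as lower, and Elovl6 and Cyp51 as higher. In bulk RNA, fewer cells with a transcript and less of it per cell cannot be told apart.

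Several calls were lost or gained when a single library was left out, in part with a fold change as large as with all 4, as for Fdps. Without wild-type replicate 1, Tm7sf2 (-0.13), Ebp (-0.11) and Srebf2 (-0.06) were no longer called lower, while Idi1 (0.20), Acaca (0.15) and Fasn (0.12) were called higher; values are log2 fold changes. Without wild-type replicate 2, Mvk (-0.14) was no longer called, the uncalled Fasn changed sign (-0.02), Nsdhl (-0.16) was called lower and Scap (0.16) higher. Without Bmal1-/- replicate 1, the calls of Mvk (-0.12), Fdps (-0.12), Sqle (-0.14), Tm7sf2 (-0.18) and Ebp (-0.16) were lost. Without Bmal1-/- replicate 2, those of Fdps (-0.12), Lss (-0.16), Tm7sf2 (-0.16), Ebp (-0.10) and Srebf2 (-0.09) were lost, and Scap (0.25) was called higher.

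**Figure D1:**
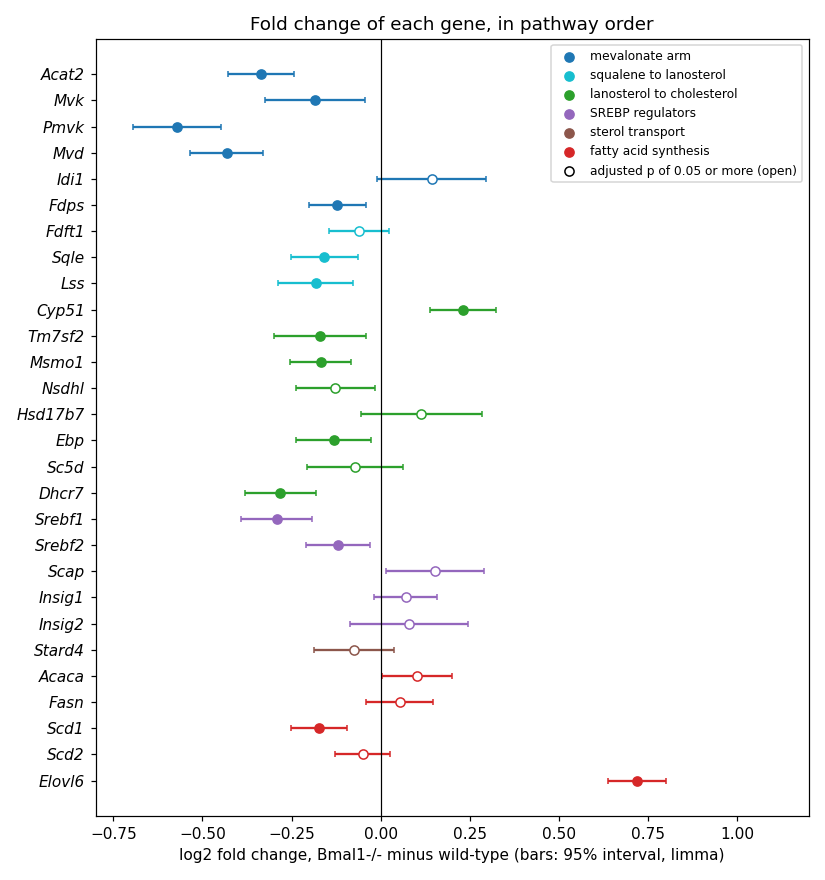
Log2 fold change of the 28 genes (Bmal1-/- minus wild-type, x axis), in pathway order from the mevalonate arm at the top to fatty acid synthesis at the bottom. Points are limma estimates from 2 libraries against 2, bars are 95% intervals, and open points have an adjusted p of 0.05 or more; Pmvk has the lowest value, -0.57, and Elovl6 the highest, 0.72.

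**Figure D2:**
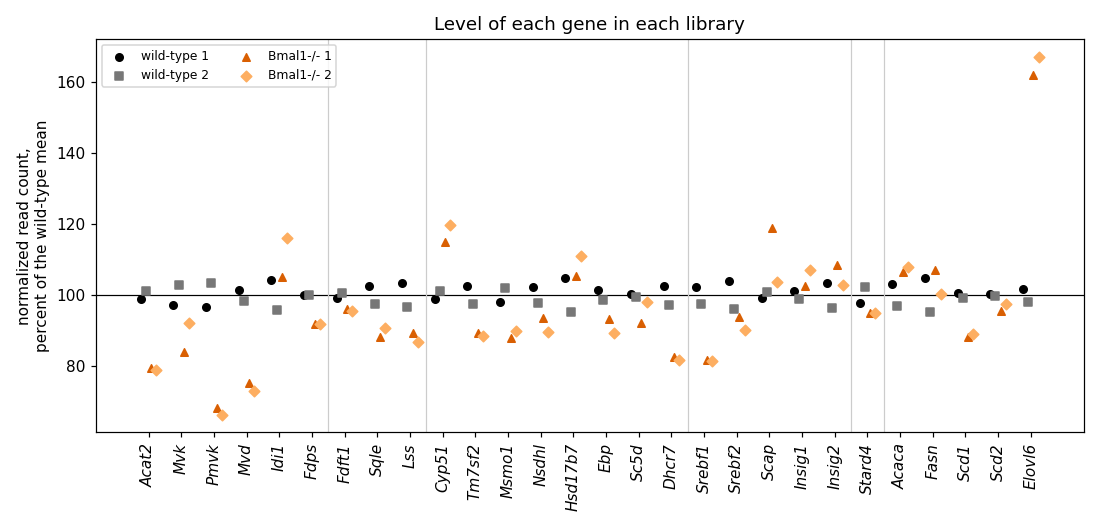
Normalized read count of each gene in each of the 4 libraries, as a percent of its wild-type mean (y axis), in pathway order with grey lines between the groups. Both Bmal1-/- libraries of Pmvk, Mvd and Acat2 lie well below 100, and both of Elovl6 lie above 160.

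The mevalonate arm held the lowest fold changes. Of its 6 measured enzymes 5 were called lower and 0 were called higher, beside 28.6% and 24% of all genes tested. Among genes with a mean of at least 100 these shares were 36.8% and 24.2%. The median log2 fold change was -0.26, beside -0.03 over all genes tested and -0.06 over those with a mean of at least 100. Pmvk, phosphomevalonate kinase (ENSMUSG00000027952, chr3:89263040-89272935 in mm9), had 1126 and 1207 normalized reads in wild-type and 795 and 774 in Bmal1-/- libraries. The groups were far apart compared with the gap between replicates. Pmvk was at 67.3% of its wild-type mean, a log2 fold change of -0.57 (95% interval -0.69 to -0.45, limma adjusted p = 1.1e-07). Mvd, the decarboxylase of the next step, had 2139 and 2072 in wild-type and 1585 and 1536 in Bmal1-/- libraries. Its groups did not overlap either, and the log2 fold change was -0.43 (SE 0.05, limma adjusted p = 3.3e-07). Acat2, a cytosolic thiolase that joins acetyl-CoA units, had 2887 and 2954 in wild-type and 2325 and 2305 in Bmal1-/- libraries. Both Bmal1-/- values were low, with a log2 fold change of -0.33 (SE 0.04, limma adjusted p = 2.8e-06).

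Acat2 shares 36.6% of its 75-base transcript windows with its neighbour Acat3, so reads between this pair are uncertain. Acat3 itself had only 23.2 and 28.7 normalized reads in wild-type and 12.2 and 16.2 in Bmal1-/- libraries. Mvk, mevalonate kinase, had a smaller change, from 736 and 779.7 to 637 and 698 (log2 fold change -0.18, limma adjusted p = 0.027). Its call was lost under 8 of the 16 alternatives. Fdps, which makes farnesyl pyrophosphate, had 7101 and 7102 in wild-type and 6527 and 6529 in Bmal1-/- libraries. Its replicates were very close, and the difference was small (log2 fold change -0.12, limma adjusted p = 0.012). Its call was lost under 6 of the 16 alternatives, with a log2 fold change of -0.06 with equal library totals and with quantile normalization. Idi1, the isomerase of isopentenyl pyrophosphate, went against the rest of the arm with 594 and 547 in wild-type and 599 and 662 in Bmal1-/- libraries, but was not called (log2 fold change 0.14, limma adjusted p = 0.11) except as higher under 3 alternatives.

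Promoter sequence was taken from RefSeq entries (GRCm38.p6), which cover 23 of the 29 genes and not Fdps, Fdft1, Sqle, Stard4, Scd1 or Scd2. The 250 bases before the start were placed on mm9 by exact match, which succeeded for all but Hmgcs1. Those printed belong to the 3 genes called lower with the lowest fold changes, and to the gene called higher, whose window holds at most 30 annotated exon bases, which leaves out Pmvk and Cyp51. Each runs 5′ to 3′ in the direction of the gene, and capitals mark a CCAAT box on either strand. Mvd lies at chr8:124967323-124967572 on the minus strand, Acat2 at chr17:13153592-13153841 on the minus strand, Srebf1 at chr11:60036084-60036333 on the minus strand and Elovl6 at chr3:129235054-129235303 on the plus strand.
Mvd: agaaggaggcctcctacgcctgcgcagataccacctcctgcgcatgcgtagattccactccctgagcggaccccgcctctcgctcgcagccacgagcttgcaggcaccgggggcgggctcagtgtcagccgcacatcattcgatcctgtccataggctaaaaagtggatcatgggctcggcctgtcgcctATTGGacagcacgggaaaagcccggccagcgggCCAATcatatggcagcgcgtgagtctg
Acat2: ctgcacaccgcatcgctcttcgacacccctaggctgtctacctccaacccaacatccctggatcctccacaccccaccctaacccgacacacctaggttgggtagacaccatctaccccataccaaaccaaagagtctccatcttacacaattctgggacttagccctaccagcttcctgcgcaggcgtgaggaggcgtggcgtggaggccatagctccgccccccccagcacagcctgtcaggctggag
Srebf1: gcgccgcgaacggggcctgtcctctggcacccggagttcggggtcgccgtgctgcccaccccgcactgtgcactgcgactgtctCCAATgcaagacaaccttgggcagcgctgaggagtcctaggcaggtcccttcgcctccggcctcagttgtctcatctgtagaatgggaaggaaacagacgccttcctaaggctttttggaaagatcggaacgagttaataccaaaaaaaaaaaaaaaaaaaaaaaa
Elovl6: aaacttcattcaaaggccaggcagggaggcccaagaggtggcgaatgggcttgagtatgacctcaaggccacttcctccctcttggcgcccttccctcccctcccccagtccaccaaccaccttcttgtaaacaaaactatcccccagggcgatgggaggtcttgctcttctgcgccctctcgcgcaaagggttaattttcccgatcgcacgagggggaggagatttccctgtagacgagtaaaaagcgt

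A pair of CCAAT boxes stood 60 and 27 bases before the start of Mvd, and 1 stood 166 bases before that of Srebf1, counted from the first base of the box. The windows of Acat2 and Elovl6 held none of the 3 motifs searched. Over the 23 genes, each with the entry nearest its annotated start, the letters CCAAT stood on either strand in 17 windows (73.9%), against 33.8% of 32851 entries of the table. The core of the sterol regulatory element, TCACNCCAC, stood in 1 window, that of Hmgcs1, against 1.05% of all entries. CACGTG, the E-box that Bmal1 and Clock can bind, stood in 3, those of Hsd17b7, Insig1 and Sc5d, against 6.02%. None of these 3 genes was called in the main comparison. Entries farther from the annotated start also held it, 164 bases before a start of Dhcr7, which was called lower, and 40 bases before a start of Scap. The 1 overlap between matches was that of CCAAT boxes 62 and 59 bases before the start of Fasn, and the entry of Acaca lay 65766 bases from its annotated start. A match describes letters only, and a window without one says nothing of binding elsewhere.

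From farnesyl pyrophosphate to lanosterol, 2 of 3 genes were called lower, beside 28.6% of all genes tested and 36.8% of those with a mean of at least 100. Sqle, squalene epoxidase, had 3129.9 and 2973 in wild-type and 2696 and 2770.2 in Bmal1-/- libraries. All Bmal1-/- values were below all wild-type values, with a log2 fold change of -0.16 (SE 0.05, limma adjusted p = 0.0059). Lss, which closes the ring to give lanosterol, was close to it at 2089 and 1950.3 against 1803 and 1754 (log2 fold change -0.18, limma adjusted p = 0.0044). The call of Sqle was lost under 5 and that of Lss under 4 of the 16 alternatives, both with every gene tested, without the trend and with DESeq2. Fdft1, squalene synthase, had 4679 and 4742 in wild-type and 4528 and 4501 in Bmal1-/- libraries and was not called (log2 fold change -0.06, limma adjusted p = 0.21). Exons of Ctsb on the other strand cover 26.89% of the exon length of Fdft1, and the strand setting of the counting is not given in the sources used here.

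Of the 8 late enzymes that turn lanosterol into cholesterol, 4 were called lower and 1 higher, beside 28.6% and 24% of all genes tested. Among genes with a mean of at least 100 these shares were 36.8% and 24.2%. Dhcr7, which makes cholesterol from its last precursor with a double bond, had 2496 and 2367 in wild-type and 2011 and 1987 in Bmal1-/- libraries. Its groups were separate, and it had the lowest fold change of the late enzymes, -0.28 on the log2 scale (SE 0.05, limma adjusted p = 4.5e-05). Cyp51, the demethylase of lanosterol, moved the other way with 2813 and 2881 in wild-type and 3276 and 3405 in Bmal1-/- libraries. Both Bmal1-/- values exceeded both wild-type values, a log2 fold change of 0.23 (95% interval 0.14 to 0.32, limma adjusted p = 1.8e-04). Msmo1, a C4 methyl oxidase, was lower at 4585 and 4683 against 5106 and 5306 in wild-type (log2 fold change -0.17, limma adjusted p = 0.0018). Tm7sf2, a sterol reductase, and Ebp, a sterol isomerase, were called lower by log2 fold changes of -0.17 and -0.13. These calls were lost under 8 and 11 of the 16 alternatives, and Tm7sf2 shares 16.9% of its windows with the overlapping gene 1110014N23Rik. Nsdhl, a sterol dehydrogenase, missed the threshold narrowly (log2 fold change -0.13, limma adjusted p = 0.0503) and was called lower under 4 alternatives. Sc5d, a sterol desaturase, and Hsd17b7, a ketosteroid reductase, had log2 fold changes of -0.07 and 0.11 and were not called.

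Taken as 17 sterol enzymes, 11 were called lower and 1 was called higher, beside 28.6% and 24% of all genes tested, and 36.8% and 24.2% of those with a mean of at least 100. Their median log2 fold change was -0.16, against -0.03 over all genes tested and -0.06 over those with a mean of at least 100. The sign was negative for 14 of 17 in each of the 16 alternatives. The size of the difference from all genes depended on scaling and on the level of the genes compared. With equal library totals the median was -0.10 beside 0.03 over all genes, a difference of -0.13 as without that scaling, but with quantile normalization it was -0.11 beside -0.05, a difference of -0.05. Summed over these enzymes, wild-type libraries held 40090.5 and 39880.0 normalized reads and Bmal1-/- libraries 36131 and 36304. Both Bmal1-/- sums were lower, at 90.6% of the wild-type mean, while the sum over all genes tested was at 95.9%. With 2 libraries against 2, an exact two-sided permutation p cannot fall below 0.333. Values of the 2 groups did not overlap, with the Bmal1-/- libraries lower, for 14 of the 17, and higher for 3; over all genes tested this held for 41.4% and 34.6%.

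**Figure D3:**
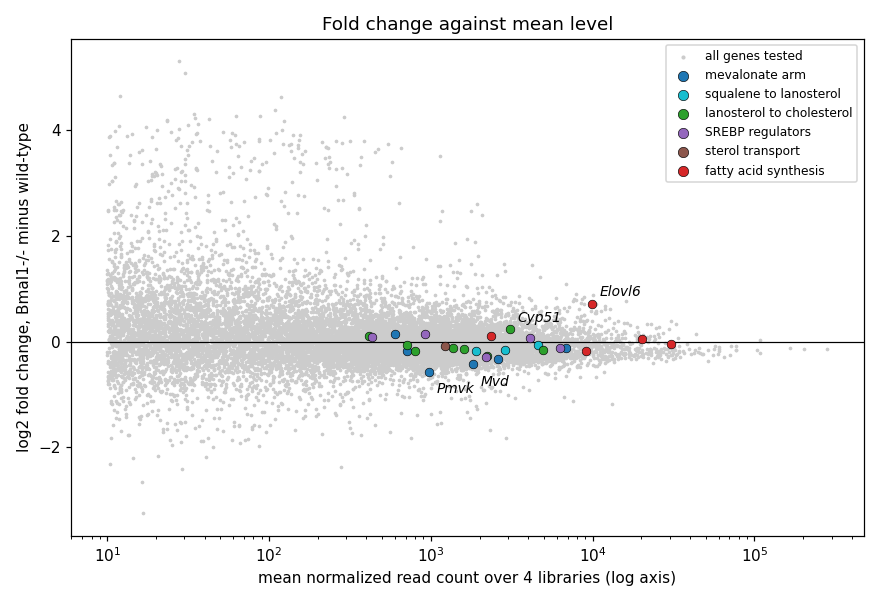
Log2 fold change (Bmal1-/- minus wild-type, y axis) against the mean normalized read count over 4 libraries (x axis, log scale), with 14510 genes tested in grey and the 28 genes in colour by role. Most sterol genes sit just below 0 inside the grey cloud, and Elovl6 stands at the upper edge for genes of its level.

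Among the regulators, the 2 SREBP genes were called lower and the genes that hold or escort the proteins were not called. Srebf1, which encodes the SREBP-1 isoforms linked to fatty acid genes, had 2458 and 2343 in wild-type and 1964 and 1955 in Bmal1-/- libraries. Its groups were separate, with a log2 fold change of -0.29 (SE 0.05, limma adjusted p = 2.8e-05). Srebf2, the SREBP linked mainly to cholesterol genes, had 6822 and 6312 in wild-type and 6154 and 5928 in Bmal1-/- libraries. The gap between its groups was smaller than the gap between the wild-type replicates (log2 fold change -0.12, limma adjusted p = 0.026), and the call was lost under 10 of the 16 alternatives. Scap, the escort, had 859 and 872 in wild-type and 1029.6 and 898 in Bmal1-/- libraries. Only Bmal1-/- replicate 1 stood out, and Scap was not called (log2 fold change 0.15, limma adjusted p = 0.058), although it was called higher under 7 of the 16 alternatives. Insig1 and Insig2, which retain the complex, had log2 fold changes of 0.07 and 0.08 (limma adjusted p = 0.18 and 0.42), and Insig1 was called higher under 2 alternatives, equal library totals and quantile normalization. Stard4, a carrier of cholesterol between membranes, had 1232 and 1289 in wild-type and 1196 and 1197 in Bmal1-/- libraries and was not called (log2 fold change -0.07, limma adjusted p = 0.26).

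In fatty acid synthesis the genes differed among themselves: of 5, 1 was called higher, 1 lower and 3 neither. Over all genes tested, 24% were called higher and 28.6% lower. Elovl6 (ENSMUSG00000041220, chr3:129235304-129341413 in mm9) had 7635 and 7365 normalized reads in wild-type and 12144 and 12532 in Bmal1-/- libraries. The Bmal1-/- libraries were both high, and the distance between the groups far exceeded that between replicates. Means were 7499.7 ± 191 in wild-type and 12338 ± 274 in Bmal1-/- (SD, n = 2), which is 1.65-fold higher. The log2 fold change was 0.72 (95% interval 0.64 to 0.80, limma adjusted p = 4.5e-12), and it stayed between 0.69 and 0.79 in all 16 alternatives. Scd1, a stearoyl-CoA desaturase, had 9782 and 9643 in wild-type and 8575 and 8662 in Bmal1-/- libraries. It was called lower (log2 fold change -0.17, SE 0.04, limma adjusted p = 6.6e-04), except by limma without the trend. Scd2, its paralog, had 31377 and 31167 in wild-type and 29875 and 30497 in Bmal1-/- libraries. It was not called (log2 fold change -0.05, limma adjusted p = 0.25), but its sign was positive with equal library totals, and with quantile normalization it was called higher (log2 fold change 0.10). Fasn, the synthase that builds palmitate, had 20725 and 18821 in wild-type and 21194 and 19825 in Bmal1-/- libraries, and its groups overlapped (log2 fold change 0.05, limma adjusted p = 0.33); it was called higher under 3 alternatives. Acaca, the carboxylase that feeds it with malonyl-CoA, had 2333 and 2196 in wild-type and 2415 and 2444 in Bmal1-/- libraries and was not called (limma adjusted p = 0.076), but was called higher under 5 alternatives. The median log2 fold change of the 5 genes was 0.05, and it changed sign to -0.02 without wild-type replicate 2.

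Relatives of these genes from a wider list of acetyl-CoA supply, elongation and desaturation were compared next. Of 25 tested, 4 were called higher (16%) and 7 lower (28%), beside 24% and 28.6% of all genes tested, with a median log2 fold change of -0.05. Scd3, another desaturase of the family, had 101 and 71.2 in wild-type and 551 and 626 in Bmal1-/- libraries. Both Bmal1-/- values were several times higher than both wild-type values, a 6.83-fold difference of means (log2 fold change 2.78, SE 0.13, limma adjusted p = 5.7e-13). Scd3 lies at chr19:44277759-44318506 in mm9, next to Scd2 at chr19:44368166-44381354 and Scd1 at chr19:44468941-44482199, neither of which was called higher except Scd2 with quantile normalization. At 95 normalized reads per kb of exon over the 4 libraries, its level was far below the 5635 of Scd2. Scd3 shares 3.13% of its windows with Scd1. Acacb, a carboxylase whose malonyl-CoA restrains fatty acid oxidation, had 2347 and 2229.7 in wild-type and 3769.8 and 3628 in Bmal1-/- libraries. It was called higher (log2 fold change 0.69, SE 0.05, limma adjusted p = 1.1e-10). Elovl2, an elongase of long polyunsaturated chains, was called higher with a log2 fold change of 0.38, a call lost under 8 of the 16 alternatives, among them without wild-type replicate 2 (0.20), Bmal1-/- replicate 1 (0.41) and Bmal1-/- replicate 2 (0.36).

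Slc25a1, the carrier that exports citrate from mitochondria for acetyl-CoA, had 3091 and 3219 in wild-type and 2078 and 2043 in Bmal1-/- libraries. Both Bmal1-/- libraries were low, at 65.3% of the wild-type mean (log2 fold change -0.61, SE 0.05, limma adjusted p = 6.7e-10). Acsl5, which activates long fatty acids with coenzyme A, had 365 and 372 in wild-type and 195 and 174 in Bmal1-/- libraries. Both Bmal1-/- values were low and averaged 50.1% of the wild-type mean, the lowest share among the called genes of that list (limma adjusted p = 5.1e-08). Hacd1, a dehydratase of the elongation cycle, was called lower with a log2 fold change of -0.58. The call was lost without wild-type replicate 2 (-0.43) or Bmal1-/- replicate 2 (-0.51), with every gene tested and with DESeq2.

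**Figure D4:**
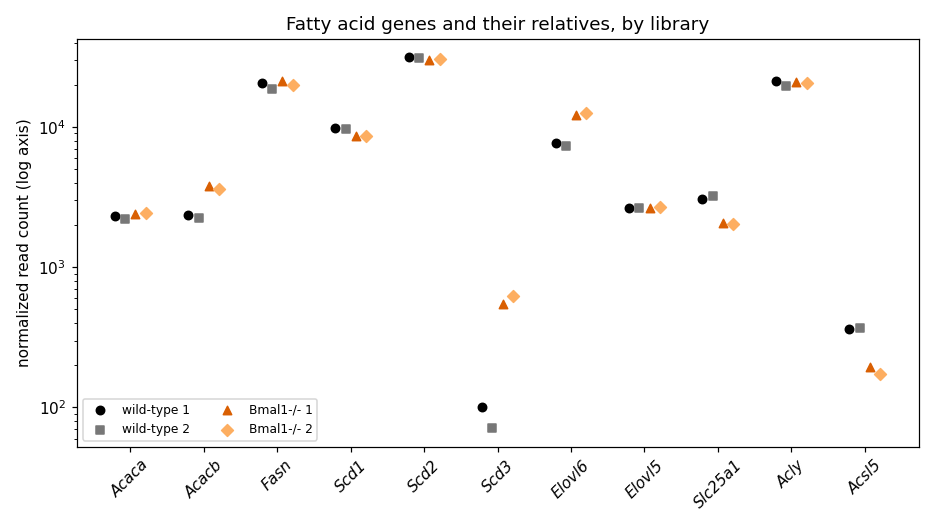
Normalized read count (y axis, log scale) of 11 genes of fatty acid synthesis and their relatives in each of the 4 libraries. Scd3, Elovl6 and Acacb are higher in both Bmal1-/- libraries and Slc25a1 and Acsl5 lower, while the points of Fasn, Acly and Elovl5 lie close together.

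Levels can be compared between genes only per length of exon. On that scale, among the 28 genes, Fdps and Scd2 had the highest values, 5527 and 5635 normalized reads per kb over the 4 libraries. Hsd17b7 had the lowest of the 28, 81.6. The median of the 17 sterol enzymes lay at percentile 82.3 of all genes tested on this scale, and that of the 5 fatty acid genes at percentile 95. Elovl6 passed from a mean of 1260.2 per kb in wild-type to 2073 in Bmal1-/-, near the level of Fasn at 2082 in Bmal1-/-.

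**Figure D5:**
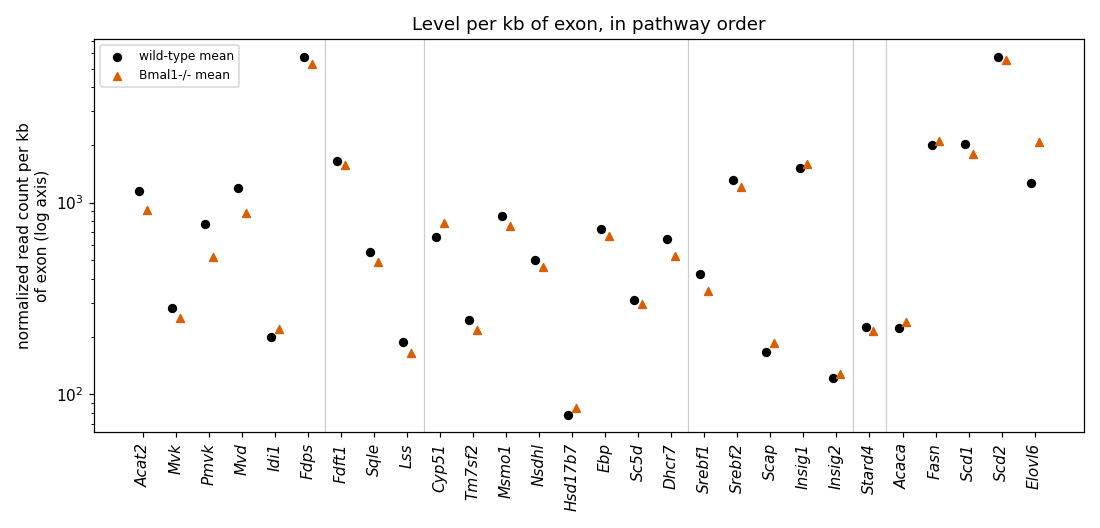
Mean normalized read count per kb of exon (y axis, log scale) in wild-type (black circles) and Bmal1-/- (orange triangles), 2 libraries each, in pathway order. Fdps and Scd2 are highest in both groups, and the points of Elovl6 and Pmvk are the farthest apart.

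Further lists of related genes were read the same way, their counts beside the 24% called higher and 28.6% called lower of all genes tested. Of 11 other genes of sterol and isoprenoid synthesis, 4 were called lower and 0 higher. Pdss1, of the ubiquinone side chain, had 803 and 803 in wild-type and 621 and 647 in Bmal1-/- libraries. Both Bmal1-/- values were low, with a log2 fold change of -0.34 (limma adjusted p = 1.4e-04). Lbr, a sterol reductase of the nuclear envelope named after its value was seen, was lower at -0.12.

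Of 9 genes that process or degrade the SREBP machinery, 1 was called higher: Erlin2, which helps degrade sterol-bound proteins, with a log2 fold change of 0.23 (limma adjusted p = 5.2e-04). Its call was lost with limma without the trend. Among 11 tested genes of sterol sensing, efflux and storage, 2 were called higher and 2 lower. Abca1, which exports cholesterol, had 72.7 and 62.7 in wild-type and 141 and 154 in Bmal1-/- libraries. It was the 1 gene of that list past 2-fold (log2 fold change 1.12, SE 0.15, limma adjusted p = 3.3e-06), though not with quantile normalization (0.94). Cyp27a1, a sterol hydroxylase, was higher at a low level, 0.83 on the log2 scale. Soat1, which esterifies cholesterol, and Abcg1, another exporter, were lower at -0.46 and -0.41. The call of Abcg1 was lost without any 1 of the 4 libraries (-0.44 to -0.38), and that of Cyp27a1 without wild-type replicate 2 (0.71), Bmal1-/- replicate 1 (0.78) or Bmal1-/- replicate 2 (0.88). Cyp27a1 also lost its call with quantile normalization (0.53), with every gene tested and with DESeq2, and Soat1 with DESeq2.

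Of 8 glycerolipid genes 5 were called higher and 1 lower, with a median log2 fold change of 0.24. Plin2, a coat protein of lipid droplets, had 1038 and 1022 in wild-type and 1402 and 1377 in Bmal1-/- libraries (log2 fold change 0.43, limma adjusted p = 1.2e-06). Dgat2, which completes triglycerides, and Lpin2, a phosphatidate phosphatase, were higher at 0.63 and 0.39, and Agpat2, an acyltransferase, lower at -0.20. Of 14 tested genes of fatty acid oxidation 2 were called higher and 3 lower. Cpt1a, which admits fatty acids to mitochondria, had 3324 and 3293 in wild-type and 4085 and 4100.4 in Bmal1-/- libraries (log2 fold change 0.31, limma adjusted p = 3.5e-06). Acaa2, a thiolase, was higher at 0.19, while Cpt1c, Ppard and Acads were lower at -0.21, -0.17 and -0.12. The call of Dgat2 was lost with quantile normalization (0.39), with every gene tested and with DESeq2. Those of Agpat2 and Cpt1c were lost under 8 of the 16 alternatives, those of Ppard and Acads under 11 and that of Acaa2 under 6. For each of these genes the alternatives included every gene tested, limma without the trend and DESeq2. Leaving out single libraries ended several calls of these lists. Without wild-type replicate 1 these were Agpat2 (-0.13), Acaa2 (0.14), Ppard (-0.13) and Acads (-0.07), and without wild-type replicate 2 they were Dgat2 (0.44) and Cpt1c (-0.16). Without Bmal1-/- replicate 1 they were Ppard (-0.21) and Acads (-0.12). Without Bmal1-/- replicate 2 they were Agpat2 (-0.10), Dgat2 (0.59), Cpt1c (-0.14), Acaa2 (0.14), Ppard (-0.13) and Acads (-0.11).

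Some markers of other cell types differed between the groups. Over all genes tested, 24% were called higher and 28.6% lower. Of the markers tested, Nes, Krt8, Krt18, Pdgfra and Col1a1 were not called. Of 5 tested neural markers 3 were called lower and 1 higher, and their summed level was 4003 and 3760.5 in wild-type and 2221 and 2103 in Bmal1-/- libraries, most of it Tubb3, a tubulin. Neurog2, which marks neural progenitors, stayed at 3 reads or fewer. The fibroblast list, most of it the filament gene Vim, summed to 3696 and 3533 in wild-type and 1224 and 1203 in Bmal1-/- libraries, with 1 of 3 tested lower and 1 higher. Its defining genes Dcn and Lum were at 0 in every library, and Col1a2 and Col3a1 at 3 reads or fewer. Of 5 tested trophoblast markers 3 were lower, with sums of 2038 and 2054 in wild-type and 1073 and 1023 in Bmal1-/- libraries, led by Tfap2c, and Elf5 at 3 reads or fewer. For primitive endoderm 3 of 5 were higher and 1 lower, with sums of 633 and 607 in wild-type and 762 and 723 in Bmal1-/- libraries, led by Lama1, and Afp at 2 reads or fewer. Of the calls higher, that of the fibroblast gene Thy1 was lost without wild-type replicate 1 (0.43) or Bmal1-/- replicate 2 (0.49), and that of the endoderm gene Gata4 without Bmal1-/- replicate 1 (0.47).

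Genes of the two-cell-like state, a rare state of mESC cultures, were all 4 called higher of those tested, beside 24% of all genes tested. Their list summed to 140.1 and 161 in wild-type and 1845 and 1824 in Bmal1-/- libraries, led by Zscan4c. Zscan4c itself had 43.2 and 60.5 in wild-type and 729.9 and 709 in Bmal1-/- libraries (log2 fold change 3.79, limma adjusted p = 4.4e-15). The part of these marker shifts in the values of the cholesterol and fatty acid genes was not tested.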

How the data were processed

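The authors aligned paired 75-base reads to mm9 with STAR 2.5.2b (reads trimmed with cutadapt 1.9.1, per the submitters' processing notes), counted them per gene and deposited a normalized signal, the read count divided by a TMM factor of its library; the counter and its strand setting are not given in the sources used here. Values were whole multiples of 1 number per library (tolerance 0.01), so whole reads were recovered for 100% of them, and a floor of 3 reads equals 2.82 to 3.19 in normalized value. Genes averaging 10 or more were tested with limma 3.58.1 in R 4.3.3 (lmFit, then eBayes with its trend option) after taking log2(value + 1), with Benjamini-Hochberg adjustment over all genes tested, two-sided and without covariates. Fold changes are on the log2(value + 1) scale. Test scripts were tested on simulated data. edgeR 4.0.16 and DESeq2 1.42.0 ran on whole reads as alternatives, beside other filters, pseudocounts and scalings, a replicate block and each library left out. edgeR called 3818 genes higher and 3864 lower, DESeq2 2690 and 2536. PCR reads are not independent molecules, so floors cover counting error only.

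Members and lists were chosen with earlier results of these data known. Genes named are the members, up to 3 highest and 3 lowest called genes of each other list, the targeted gene and markers; some genes this rule names are not reported here. Exon lengths, overlaps and positions come from the GENCODE annotation of NCBIM37, the same assembly as mm9. Figures used matplotlib 3.10.9 in Python 3.11.15.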

Additional observations from a re-analysis of the deposited data

How the results depend on the processing

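The number of genes called lower (14) was 8 when every gene was tested and 8 with equal library totals, 9 with quantile normalization, 5 with limma without the trend and 7 with DESeq2; leaving out 1 library gave 9 to 14. The number called higher (2) was 4 with median-ratio size factors, 7 with equal library totals and with quantile normalization, and 5 with edgeR; leaving out 1 library gave 2 to 5. A mean of at least 100, an alternative chosen after seeing the data, gave 15 lower and 2 higher. The share of all genes called lower moved too, to 12.4% when every gene was tested, 22% with equal library totals and 27.7% with quantile normalization. It was 17.3% without the trend and 17.5% with DESeq2. The cause was not tested. The number past 2-fold was 0 throughout.

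The median log2 fold change of the sterol enzymes (-0.16) was -0.10 with equal library totals, -0.11 with quantile normalization, -0.13 with edgeR and -0.13 with DESeq2, and -0.16 to -0.12 with 1 library left out. That of the fatty acid enzymes (0.05) was 0.11 with equal library totals and 0.13 with quantile normalization, and -0.0159 to 0.12 with 1 library left out. The summed sterol level (90.6% of wild-type) was 91.5% with median-ratio size factors and 94.5% with equal library totals. Each scaling moved the median of all genes by less than 0.1 on the log2 scale.

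Signs changed for Fasn, to -0.0159 without wild-type replicate 2, for the Scd2 log2 fold change, to 0.0093 with equal library totals and 0.10 with quantile normalization, and for the marker Dppa5a, to 0.0539 with quantile normalization; the cause was not tested. With the replicate number as a replicate block, 15 genes were lower and 3 higher, the added calls being Nsdhl and Scap. The sample titles give both genotypes an experiment number, 1 or 2, without saying that it marks a shared day or batch. Deviations of same-numbered libraries correlated at -0.02 across genes, and whether the numbers pair the libraries cannot be told. A left-out library leaves 1 in its group, which is then assumed to vary like the others.

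With 2 libraries a group and a single clonal Bmal1-/- line, p-values set differences against the spread between these cultures only. In limma the spread of a gene was in part pooled with that of genes of similar level. Intervals cover counts and replicate spread, not differences between clones. Genes near the floor, such as Cyp27a1, are known less precisely than genes with high counts.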
